A study of Mus musculus with 6 samples.

Results

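The aryl hydrocarbon receptor and its closest target genes were followed through RNA-seq of mouse embryonic fibroblasts (MEFs) treated with a small molecule that acts on the mitofusins. The set held 6 of the 55291 genes listed: Ahr, which encodes the receptor, Arnt, which encodes its dimer partner, and the targets Cyp1a1, Cyp1b1, Tiparp and Ahrr. They were chosen by name, with it already known that Cyp1a1 and Cyp1b1 sat higher with MASM7 and lower with MFI8 at low counts. For that reason the levels and fold changes of the 6 genes are given as a description, without a p of their own; counts of members past a threshold, given further on, are descriptions as well.

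The receptor is a ligand-activated transcription factor of the bHLH-PAS family. Without a ligand it is held in the cytosol by HSP90 and p23 (the product of Ptges3); with a ligand such as dioxin, a polycyclic aromatic hydrocarbon or a tryptophan product it moves to the nucleus, pairs with ARNT and binds the core letters GCGTG of the xenobiotic response element. CYP1A1 and CYP1B1 are P450 enzymes that oxidise many of these ligands, and their genes are the most widely used readouts of the receptor. TIPARP, an ADP-ribosyltransferase, and AHRR, a repressor that competes for ARNT, are targets that act back on the receptor. ARNT also pairs with HIF1A in the response to low oxygen.

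All libraries came from WT MEFs with no transgene or deletion named, cultured fibroblasts that the authors obtained from another laboratory. The 3 groups were vehicle, 1 μM MASM7 for 6 h and 20 μM MFI8 for 6 h, with 2 libraries each from what the series calls independent biological replicates. MASM7 is an activator of the mitofusins MFN1 and MFN2, the proteins that fuse the outer mitochondrial membrane, and MFI8 is an inhibitor of them. The doses differed, and the labels do not say how long vehicle was applied, so compound and concentration cannot be told apart in any comparison of MFI8 with MASM7. Both compounds were set against the same 2 vehicle libraries, so the 2 comparisons with vehicle are not independent.

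Total counts ran from 22791792 to 30677751 per library, and 14290 genes passed the filter on low counts (a count of about 10 in a library of median size, here a CPM, the count scaled to a library of 1000000 counts, of 0.364 in 2 libraries). The 2 libraries of each group differed by more than sampling noise (chi-square of 7.06 to 7.69 per degree of freedom over genes). All 9 fibroblast markers passed this filter, with Vim at 2920 CPM in vehicle, although Thy1, a common surface marker of fibroblasts, averaged only 0.404 CPM there. Of 6 hepatocyte markers, 5 were listed at 0 in every library, among them Alb, Ttr and Hnf4a. The summed level of the 5 epithelial markers did not exceed 0.304 CPM in any library, and that of the 5 endothelial markers did not exceed 0.596 CPM. Of the 5 blood cell markers, Adgre1 and Cd3e were at 0 throughout, and the list's sum, which came mostly from Csf1r, ranged from 11.6 to 12 CPM in the vehicle libraries, from 10.9 to 13.9 under MASM7 and from 10.1 to 10.3 under MFI8. Of the 9 fibroblast markers, 8 had a log2 fold change below 0 with MFI8 (median −0.16), with libraries that overlapped vehicle for each of the 9. The part of these shifts in the values below was not tested. In these bulk samples, fewer cells of a type and less RNA per cell cannot be told apart.

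The promoters of the 4 targets are shown because they hold the letters that the receptor and ARNT bind. RefSeq windows on GRCm38.p6 were matched for 5 of the 6 genes, all but Ahr, and each was read over the 250 bases before the RefSeq transcription start. Capitals mark GCGTG or, for a match on the opposite strand, CACGC. The sequences run 5′ to 3′ on the strand of the gene. The Cyp1a1 window is chr9:57697363-57697612 on the plus strand, the Cyp1b1 window chr17:79715062-79715311 on the minus strand and the Ahrr window chr13:74292332-74292581 on the minus strand. The Tiparp window, chr3:65528197-65528409 on the plus strand, is shown without its last 37 bases, which GENCODE vM21 places in the first exon of Tiparp.
Cyp1a1: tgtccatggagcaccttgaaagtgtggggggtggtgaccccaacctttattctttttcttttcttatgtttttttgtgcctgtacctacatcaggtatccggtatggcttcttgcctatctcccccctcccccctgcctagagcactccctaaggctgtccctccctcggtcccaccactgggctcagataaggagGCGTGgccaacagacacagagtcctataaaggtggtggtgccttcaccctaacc
Cyp1b1: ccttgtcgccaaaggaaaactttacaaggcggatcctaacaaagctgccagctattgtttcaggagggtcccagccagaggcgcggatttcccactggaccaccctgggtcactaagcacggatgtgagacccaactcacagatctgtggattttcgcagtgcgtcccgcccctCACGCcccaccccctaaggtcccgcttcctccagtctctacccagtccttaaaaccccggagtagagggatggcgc
Ahrr: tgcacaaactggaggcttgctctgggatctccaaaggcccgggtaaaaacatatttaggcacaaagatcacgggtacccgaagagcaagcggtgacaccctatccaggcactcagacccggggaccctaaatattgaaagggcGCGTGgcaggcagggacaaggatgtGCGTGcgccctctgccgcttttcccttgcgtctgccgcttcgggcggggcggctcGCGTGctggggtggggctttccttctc
Tiparp: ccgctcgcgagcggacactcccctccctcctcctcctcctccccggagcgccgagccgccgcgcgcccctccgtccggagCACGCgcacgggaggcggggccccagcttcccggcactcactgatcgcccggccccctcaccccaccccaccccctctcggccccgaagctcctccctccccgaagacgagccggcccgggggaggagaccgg

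Each of these windows held the core: Cyp1a1 1 match that began 54 bases before the start, Cyp1b1 1 at 76 bases and on the opposite strand, Tiparp 1 at 170 bases and on the opposite strand, and Ahrr 3 at 107, 82 and 27 bases. The window of Arnt held 1 match at 29 bases. Over 32851 RefSeq windows of the same length, 28.2% held at least 1 match on either strand and 2.77% at least 3. The letters ACGTG, 1 form of the core of the HIF response element, were in 16.6% of all windows and in none of the 5. That core can also begin with G, as GCGTG, so the matches do not separate the receptor's element from that of HIF. A match is a string of letters and not a measured binding site. The RefSeq start of Cyp1a1 lies 9685 bases inside the gene as GENCODE draws it, and no annotated exon touched its window. The Tiparp window lies within an exon of 4931440P22Rik, a gene on the opposite strand.

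On the per-length scale of TPM (a level per transcript length, with the same sum in every library), the 6 genes fell into the same order in each of the 6 libraries, leaving aside Ahrr, which was at or near 0. In vehicle, Tiparp led at 119.2 ± 1.49 TPM (SD, n = 2), followed by Arnt at 48.36 ± 1.82, Ahr at 32.08 ± 5.66, Cyp1a1 at 1.609 ± 1.03 and Cyp1b1 at 0.274 ± 0.126. By mean TPM in vehicle, 1693 listed genes stood above Tiparp, 4058 above Arnt, 5434 above Ahr, 12922 above Cyp1a1 and 17393 above Cyp1b1. The receptor and its partner were thus well above both CYP1 transcripts in these fibroblasts. Neighbours in this order were separated by more than their spread, except Cyp1a1 and Cyp1b1 with MFI8, which were at 0.112 and 0.107 TPM in the first MFI8 library. The level of Ahr was 0.515 to 0.776 of that of Arnt across the libraries. As a share of the TPM of Tiparp, Cyp1a1 came to 0.735% and 1.98% in the vehicle libraries, 3.02% and 2.59% under MASM7 and 0.117% and 0.94% under MFI8.

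Cyp1a1 (chromosome 9, 57687928 to 57703824 on GRCm38, plus strand, protein coding) had the widest range on the log2 scale among the members past the filter. Its raw counts were 16 and 46 in the vehicle libraries, 90 and 71 under MASM7, and 2 and 23 under MFI8. In CPM these were 0.702 (exact 95% Poisson interval 0.401 to 1.14) and 1.83 (1.34 to 2.44) for vehicle, 3.04 (2.45 to 3.74) and 2.33 (1.82 to 2.94) for MASM7, and 0.0871 (0.0105 to 0.315) and 0.745 (0.472 to 1.12) for MFI8. Both MASM7 libraries lay above both vehicle libraries and above both MFI8 libraries, while the second MFI8 library lay just above the first vehicle library. The 2 vehicle libraries differed from each other beyond these counting intervals, and so did the 2 MFI8 libraries, by 1.29 and 2.35 on the log2 scale, against 0.372 between the MASM7 libraries. The intervals of the second MASM7 library and the second vehicle library overlapped. All these intervals cover counting error only.

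In the fit of all 6 libraries in edgeR, Cyp1a1 was 2.09-fold higher with MASM7 than with vehicle (log2 fold change 1.06, SE 0.49, 95% interval −0.03 to 2.16), from group means of 2.688 ± 0.501 and 1.265 ± 0.797 CPM (SD, n = 2). With MFI8 its mean was 0.4162 ± 0.465 CPM, 2.8-fold lower than vehicle in the fit (log2 fold change −1.49, SE 0.64, 95% interval −2.92 to −0.05). MFI8 set directly against MASM7 gave a 5.86-fold lower value (log2 fold change −2.55, SE 0.57, 95% interval −3.83 to −1.27). The size of each fold rested on single libraries. The log2 fold change for MASM7 was 0.55 without the first vehicle library and 1.93 without the second, and that for MFI8 was −0.62 without the second vehicle library, −0.78 without the first MFI8 library and −3.81 without the second MFI8 library, which leaves only the library of 2 counts. MFI8 against MASM7 gave −1.84 and −4.87 without the first and without the second MFI8 library. The direction was kept in all 13 alternatives that gave a value in each of the 3 comparisons. Its biological coefficient of variation was 35%, against 14.5% for genes of like abundance. Its near relative Cyp1a2, with which reads could be shared, had 0 counts in all 6 libraries.

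Cyp1b1 (chromosome 17, 79701537 to 79715061, minus strand, protein coding), the CYP1 enzyme of tissues outside the liver and of mesenchymal cells, had fewer counts still. They were 7 and 15 in vehicle, 20 and 33 under MASM7, and 4 and 10 under MFI8. These stood for 0.307 (0.123 to 0.632) and 0.596 (0.334 to 0.983) CPM for vehicle, 0.676 (0.413 to 1.04) and 1.08 (0.747 to 1.52) for MASM7, and 0.174 (0.0475 to 0.446) and 0.324 (0.155 to 0.596) for MFI8, with 95% Poisson intervals in parentheses. As for Cyp1a1, both MASM7 libraries were above the other 4, and the second MFI8 library was just above the first vehicle library. The Poisson intervals of the 2 libraries overlapped within each group. Those of both MASM7 libraries also overlapped that of the second vehicle library.

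**Figure D1:**
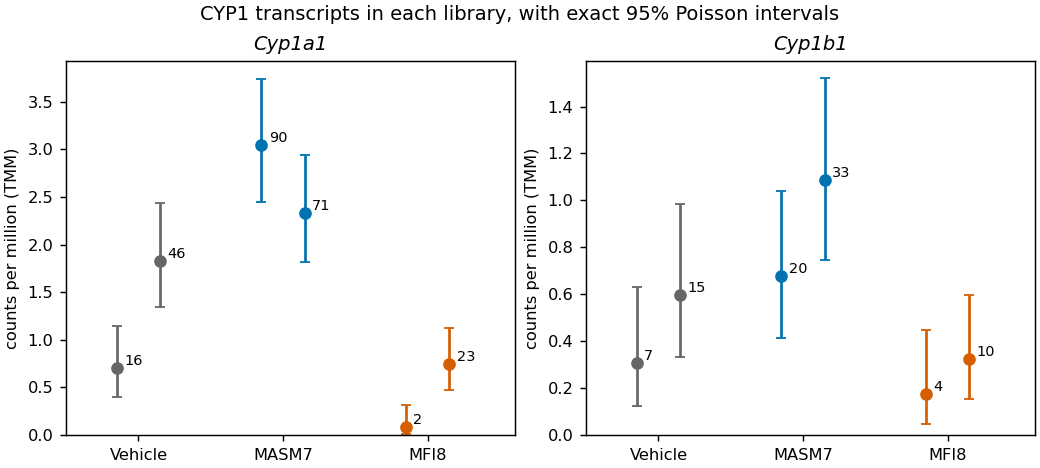
CPM of Cyp1a1 (left) and Cyp1b1 (right) in each of the 6 libraries, as points with exact 95% Poisson intervals and the raw count beside each point; both axes start at 0. Both MASM7 libraries lie above the other 4 for each gene, the MFI8 and vehicle libraries overlap, and the lowest point is the first MFI8 library, with 2 counts of Cyp1a1 and 4 of Cyp1b1.

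The fitted fold of Cyp1b1 with MASM7 was 1.92 (log2 fold change 0.94, SE 0.45, 95% interval −0.06 to 1.95), from 0.8805 ± 0.289 CPM against 0.4516 ± 0.205 (SD, n = 2). With MFI8, at 0.2491 ± 0.106 CPM, its log2 fold change from vehicle was −0.81 (SE 0.57, 95% interval −2.07 to 0.45). Between MFI8 and MASM7 it was −1.75 (SE 0.49, 95% interval −2.85 to −0.66). Without the second vehicle library these values were 1.51 for MASM7 and −0.24 for MFI8. The value for MASM7 was 0.56 without the first vehicle library and 0.56 without the second MASM7 library. The value for MFI8 was −0.49 without the first MFI8 library and −1.37 without the second. Cyp1b1 reached the level the filter asks for in 3 libraries, of which 1 was outside the MASM7 group, so it entered the fit through the group in which it was high. Cyp1a1 reached that level in 5 libraries, 3 of them outside the MASM7 group.

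Tiparp (chromosome 3, 65528410 to 65555518, plus strand, protein coding) was the most abundant of the set per length and was measured with far less error than the CYP1 genes. Its counts were 3404 and 3642 for vehicle, 4665 and 4290 for MASM7, and 2652 and 3827 for MFI8, or 149.2 and 144.8, 157.7 and 141, and 115.5 and 124 CPM. Both MFI8 libraries lay below the other 4, and the MASM7 libraries lay on either side of the vehicle libraries. With MFI8 the mean was 119.8 ± 6.03 CPM against 147 ± 3.17 with vehicle (SD, n = 2), a log2 fold change of −0.29 (SE 0.07, 95% interval −0.44 to −0.15), which is 1.23-fold lower. With MASM7 it was 149.4 ± 11.8 CPM, a log2 fold change of 0.02 (SE 0.07, 95% interval −0.13 to 0.17), an interval whose upper end is 1.13-fold. Against MASM7 the log2 fold change with MFI8 was −0.32 (SE 0.07, 95% interval −0.47 to −0.17). Of its 4358 exonic bases, 223 overlap 4931440P22Rik, and since the strand setting of the counting is not given in the sources used here, a share of the reads there cannot be assigned; that gene had 36 to 50 counts per library.

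Ahrr (chromosome 13, 74211118 to 74292331, minus strand, protein coding) was at the limit of detection. It had 0 counts in both vehicle libraries and in both MFI8 libraries, and 2 and 1 with MASM7. A count of 0 allows up to 3 counts, the one-sided 95% limit for counting error, or 0.132 and 0.119 CPM in the vehicle libraries and 0.131 and 0.0972 CPM in the MFI8 libraries, so a difference between groups was not detectable at this depth and no fold is given.

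Ahr (chromosome 12, 35497974 to 35535038, minus strand, protein coding), the receptor itself, had counts of 1444 and 1224 in vehicle, 1599 and 1222 under MASM7, and 1422 and 1549 under MFI8. These were 63.31 and 48.65, 54.06 and 40.17, and 61.93 and 50.2 CPM, and the libraries of the 3 groups overlapped. The 2 libraries of a group differed by 0.303 to 0.428 on the log2 scale, with the same sign by replicate number in each group. The log2 fold change was −0.25 with MASM7 (SE 0.16, 95% interval −0.60 to 0.10) and within 0.001 of 0 with MFI8 (SE 0.16, 95% interval −0.35 to 0.35). The value for MASM7 was −0.05 without the first vehicle library and −0.05 without the second MASM7 library, and −0.43 and −0.48 without the other library of each of these groups. For MFI8 against MASM7, at 0.25, it ran from 0.05 to 0.48 as each library was left out. Changes of up to 1.27-fold in either direction with MFI8 were within that interval. With replicate number as a blocking factor, the log2 fold change with MASM7 was −0.25 with an SE of 0.0588, and Ahr was called by edgeR for MASM7 against vehicle and for MFI8 against MASM7; no label says what a shared number stands for. An overlapping gene on the opposite strand, Gm48236, had at most 4 counts.

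Arnt (chromosome 3, 95434388 to 95497240, plus strand, protein coding) was the steadiest of the set. The vehicle libraries were at 107.3 and 111.8 CPM, those with MASM7 at 104.9 and 101.4, and those with MFI8 at 103.7 and 111.2. Both MASM7 libraries were a little below both vehicle libraries, with a log2 fold change of −0.09 (SE 0.06, 95% interval −0.22 to 0.04). With MFI8 the libraries overlapped vehicle (log2 fold change −0.03, SE 0.06).

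**Figure D2:**
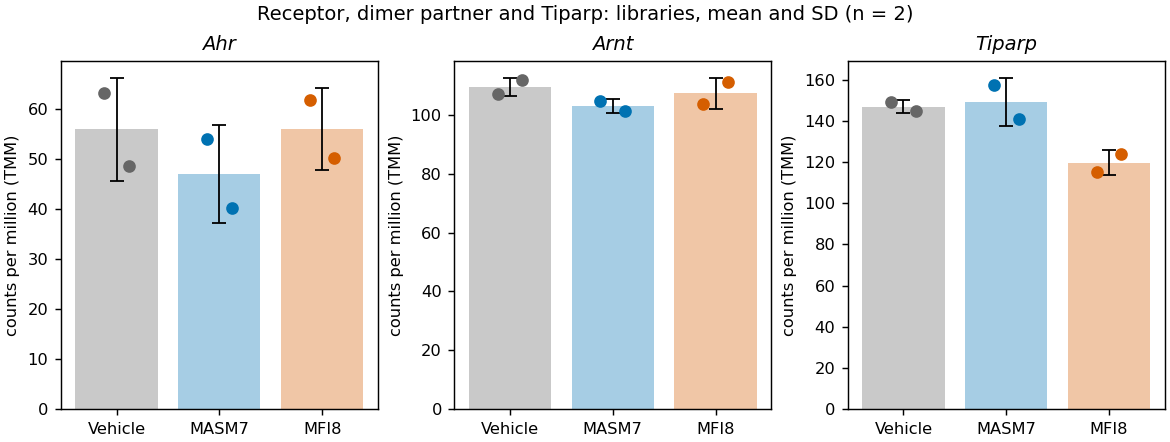
CPM of Ahr, Arnt and Tiparp in each library (points), with group means as bars and SD as error bars (n = 2); each axis starts at 0. The 2 MFI8 libraries of Tiparp, at 115.5 and 124 CPM, lie below all others, while the points of Ahr overlap between the groups.

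The 5 members past the filter can be read against all genes tested. The edgeR quasi-likelihood test with Benjamini-Hochberg adjustment called 0 members and 0% of the 14290 genes in each of the 3 comparisons. At an unadjusted p under 0.05 it had 0 members for MASM7, where the background was 10.2% of genes, 2 for MFI8 (background 9.86%) and 3 for MFI8 against MASM7 (background 7.18%). DESeq2 called 0 members for MASM7 and 0 for MFI8, where it called 0.00747% and 0.376% of the genes with an adjusted p, and 1 member, Tiparp, for MFI8 against MASM7, where it called 0.227%. It gave no adjusted p for Ahrr and Cyp1b1 in the comparisons with MFI8, and limma on TPM called 0 members and 0% of genes. With the replicate block, edgeR called 1 member for MASM7 (Ahr, beside 3.88% of all genes), 1 for MFI8 (Tiparp, beside 5.04%) and 4 for MFI8 against MASM7 (Ahr, Cyp1a1, Cyp1b1 and Tiparp, beside 3.07%). With no filter beyond 1 count in any library, over 26760 genes, it called 1 member for MASM7 (Cyp1a1, beside 0.475% of genes), 2 for MFI8 (Cyp1a1 and Tiparp, beside 0.957%) and 3 for MFI8 against MASM7 (these and Cyp1b1, beside 0.628%). By the plainer measure of libraries that do not overlap, 2 members were higher with MASM7 than with vehicle (21.2% of all genes) and 1 lower (21.6%). With MFI8, 0 members were higher than vehicle (20.9% of all genes) and 1 lower (19.3%). Against MASM7, 3 members were lower with MFI8 (19.6% of all genes) and 0 higher (19.6%). The members were chosen with these contrasts known, so nothing is read from their counts. With 2 libraries against 2, an exact permutation test cannot give a two-sided p below 0.333.

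**Figure D3:**
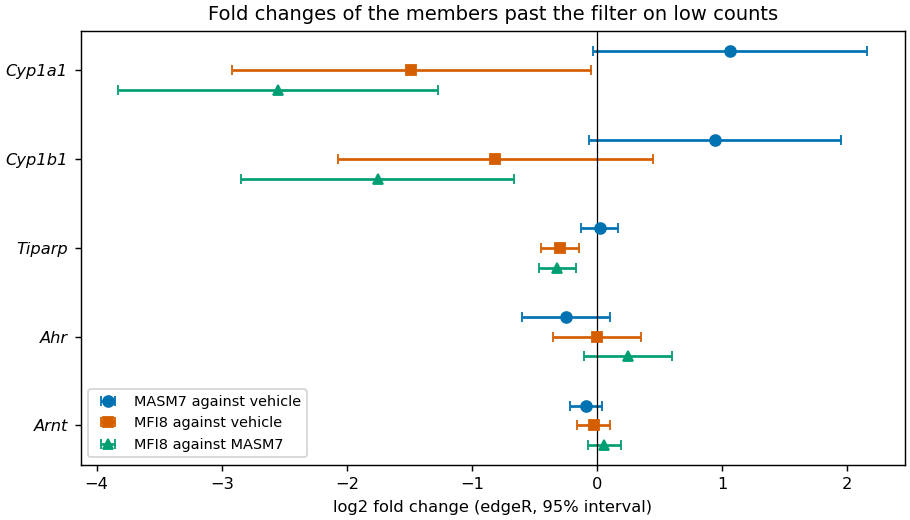
Log2 fold changes of the 5 members past the filter, with 95% intervals from the edgeR fit of all 6 libraries, for MASM7 against vehicle (circles), MFI8 against vehicle (squares) and MFI8 against MASM7 (triangles). Cyp1a1 and Cyp1b1 have the widest intervals, and Tiparp sits below 0 in both comparisons that involve MFI8.

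**Figure D4:**
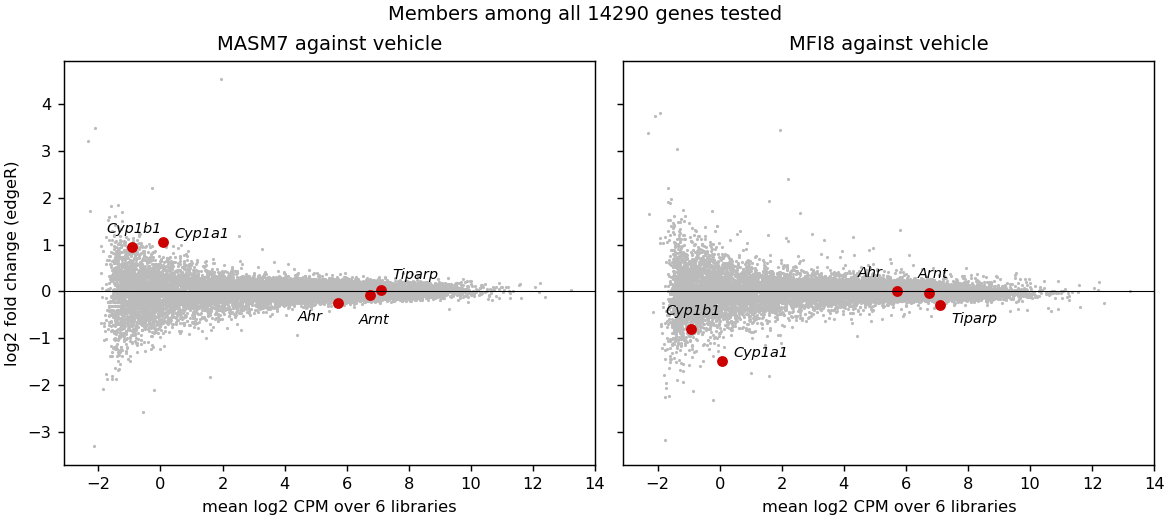
Log2 fold change against mean log2 CPM over the 6 libraries for all 14290 genes tested (grey), with the 5 members marked, for MASM7 (left) and MFI8 (right) against vehicle. Cyp1a1 and Cyp1b1 lie at the low end of abundance, where fold changes scatter widely, and Tiparp lies at −0.29 with MFI8.

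The wider list of genes known as induced by receptor ligands held 16 more, of which 12 passed the filter and 0 were called in any comparison by edgeR. With MASM7, 5 of the 12 were above 0 and 7 below, with a median log2 fold change of −0.03 beside 0.00067 for all genes; 1 higher and 0 lower had an unadjusted p under 0.05, as did 5.32% of all genes higher and 4.88% lower. With MFI8, 7 were above 0 and 5 below, with a median of 0.13 beside 0.0027 for all genes; 2 higher and 2 lower had an unadjusted p under 0.05, as did 5.21% of all genes higher and 4.65% lower. These counts and medians describe the list, and no test was made of it as a set. Both MASM7 libraries were above vehicle for 2 of the 12, Serpinb2 and Slc7a5, and below it for 2, Nfe2l2 and Hes1, against 21.2% and 21.6% of all genes. Serpinb2 encodes a protease inhibitor (log2 fold change 0.81, SE 0.60 with MASM7, edgeR adjusted p = 0.635). Its level was 0.9495 ± 0.0518 CPM with MASM7 against 0.529 ± 0.376 with vehicle and 0.5246 ± 0.496 with MFI8 (SD, n = 2).

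Among the drug-metabolising genes of that list, Nqo1, a quinone reductase that the receptor and NRF2 both induce, was scarce as well. Its mean was 2.95 ± 0.912 CPM in vehicle, 2.907 ± 0.671 under MASM7 and 3.486 ± 0.249 under MFI8 (SD, n = 2), with libraries that overlapped and a log2 fold change with MFI8 of 0.25 (SE 0.25, edgeR adjusted p = 0.777). Gsta1, a glutathione transferase whose reads can be shared with its close relative Gsta2, had log2 fold changes of −0.47 with MASM7 (SE 0.46, edgeR adjusted p = 0.73) and 0.40 with MFI8 (SE 0.42, edgeR adjusted p = 0.79). Its counts were 27 and 16 in vehicle, 24 and 15 under MASM7, and 36 and 27 under MFI8, with both MFI8 libraries above both MASM7 libraries in CPM (log2 fold change 0.87, SE 0.43, edgeR adjusted p = 0.706). Nfe2l2, which encodes NRF2, had a log2 fold change of −0.35 with MFI8 (SE 0.07, edgeR adjusted p = 0.202), from 98.23 ± 7.66 to 77.04 ± 2.22 CPM, with both MFI8 libraries below vehicle. Xdh, which encodes xanthine dehydrogenase, was also lower in both MFI8 libraries (3.006 ± 0.676 against 4.935 ± 1.64 CPM, log2 fold change −0.72, SE 0.26, edgeR adjusted p = 0.425). Slc7a5, an importer of large neutral amino acids including tryptophan, was higher in both libraries of both compounds, with a log2 fold change of 0.17 with MASM7 (SE 0.06, edgeR adjusted p = 0.473) and 0.22 with MFI8 (SE 0.06, edgeR adjusted p = 0.357). Cyp1a2 and Ido1 had 0 counts in every library, and Aldh3a1 and Ugt1a6a were under the filter. Ugt1a6b passed it, but shares exons with other Ugt1a genes, so its count is uncertain.

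**Figure D5:**
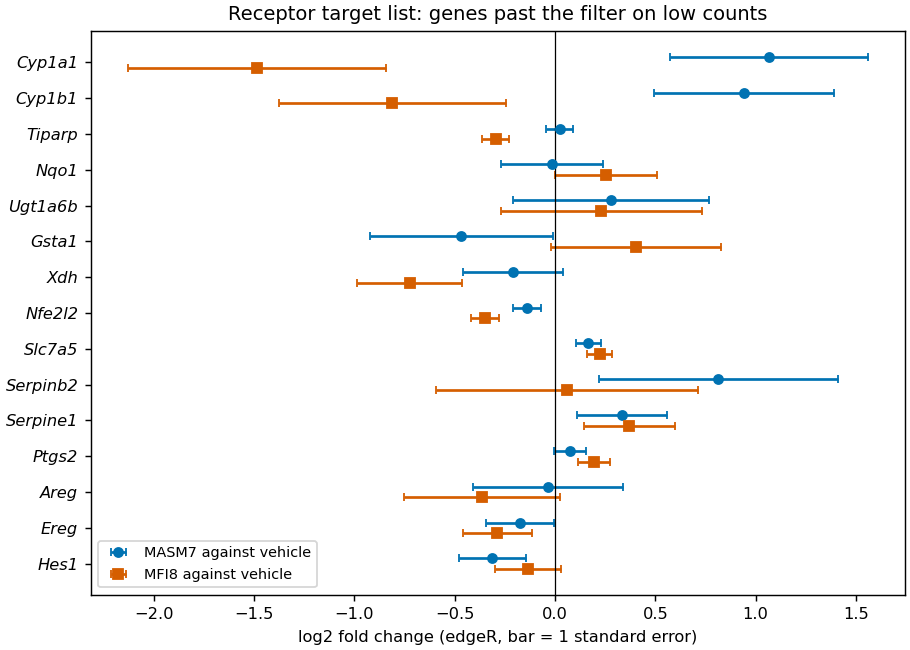
Log2 fold changes of the 15 genes of the receptor target list that passed the filter, members included, for MASM7 (circles) and MFI8 (squares) against vehicle, with bars of 1 standard error. Cyp1a1 and Cyp1b1 lie above 0 with MASM7 and below it with MFI8, and Gsta1 lies on the opposite sides. Nqo1 lies near 0 with MASM7 (−0.015, SE 0.26). The 12 genes that are not members lie between −0.72 and 0.81.

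Of the 8 genes of the receptor complex, 7 passed the filter and 0 were called. Hsp90ab1, which encodes an HSP90 chaperone, had log2 fold changes of −0.0036 with MASM7 and 0.021 with MFI8 (SE 0.05 for both). Arnt2, a relative of ARNT best known from the nervous system, was at 10.17 ± 0.586 CPM with MFI8 against 8.528 ± 0.65 with vehicle (log2 fold change 0.25, SE 0.12, edgeR adjusted p = 0.533). Of the 16 genes of the bHLH-PAS family, 7 passed the filter. Hif1a, which shares ARNT with the receptor, was lower in both libraries of each compound, with log2 fold changes of −0.14 with MASM7 (SE 0.06, edgeR adjusted p = 0.477) and −0.13 with MFI8 (SE 0.06, edgeR adjusted p = 0.468). Epas1, which encodes HIF-2 alpha, had at most 3 counts in a group.

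Targets of HIF1A were counted because they use the same dimer partner. Of 12 tested, 0 were called; 4 had an unadjusted p under 0.05 with MASM7 and 4 with MFI8, all lower, where 4.88% and 4.65% of all genes were lower at that p. With MASM7, 5 were above 0 and 7 below, and with MFI8, 4 were above 0 and 8 below. Of all 14290 genes, 7163 and 7239 were above 0. The median log2 fold change of the list was −0.05 with MASM7 and −0.11 with MFI8, beside 0.00067 and 0.0027 for all genes. Bnip3, a mitophagy receptor, had log2 fold changes of −0.32 (SE 0.12, edgeR adjusted p = 0.473) with MASM7 and −0.41 (SE 0.12, edgeR adjusted p = 0.358) with MFI8. Pdk1, a kinase that holds back pyruvate dehydrogenase, had −0.37 with each compound (SE 0.15, edgeR adjusted p = 0.477 and 0.455). Both genes had the same sign with the 2 compounds, whose comparisons share the vehicle libraries.

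Of 11 coregulators of the receptor, 9 were above 0 with MFI8, as were 7239 of all 14290 genes, and 5 had both MFI8 libraries above vehicle, against 20.9% of all genes. The acetyltransferase genes Crebbp and Ep300 had log2 fold changes of 0.25 (SE 0.08, edgeR adjusted p = 0.392) and 0.14 (SE 0.05, edgeR adjusted p = 0.413), and 0 of the 11 were called. With MASM7, 4 were above 0 and 7 below, and both MASM7 libraries were above vehicle for 4 and below it for 2, against 21.2% and 21.6% of all genes. Of the 6 electron donors and membrane partners of microsomal P450 enzymes, each passed the filter and 0 were called, and Por, the reductase on which CYP1A1 and CYP1B1 depend, had log2 fold changes of 0.07 and 0.09 with MASM7 and MFI8 (SE 0.06 for both). Of 10 enzymes of the route from tryptophan to kynurenine-type ligands, 4 passed the filter; Ido1, Tdo2 and Kynu had 0 counts in every library. Of the 6 genes for ubiquitin and PARP partners of the receptor, each passed and 0 were called. In that list Tbl3 had the highest value with MASM7 (log2 fold change 0.17, SE 0.05, edgeR adjusted p = 0.473) and Cul4b, which encodes the scaffold of a ligase in which the receptor takes part, the lowest (−0.16, SE 0.06, edgeR adjusted p = 0.473).

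Across the 6 libraries, log2 CPM of Cyp1a1 and Cyp1b1 went together with Pearson's r = 0.912. With Tiparp, Cyp1a1 had r = 0.824 and Cyp1b1 r = 0.651. With Ahr, Cyp1a1 had r = −0.644 and Cyp1b1 r = −0.831. These are descriptions over 6 libraries that share 3 treatments. Cyp1a1 and Cyp1b1 were chosen with their like direction in these libraries known, so nothing is read from the r between them. The genes with the profile most like Cyp1a1, among 3211 with an SD of log2 CPM of at least 0.25, were Gm14002 (r = 0.993), Gfap (r = 0.9629), Gm39090 (r = 0.9616), Gm5242 (r = 0.9615) and Gm5523 (r = 0.9591), each at 1.91 CPM or less in every library. For Cyp1b1 they were Atp8b4 (r = 0.9932), Tpi-rs11 (r = 0.9714), Crispld2 (r = 0.951), Usp35 (r = 0.9472) and Gm5559 (r = 0.946). None of these 10 belonged to the lists above. Atp8b4, which encodes a P4-type ATPase, had group means of 3.05 CPM in vehicle, 3.85 under MASM7 and 2.58 under MFI8.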

How the data were processed

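RNA-seq was made from polyA RNA of WT MEFs. Per the labels and the methods, the authors used Trimmomatic for trimming, STAR for alignment to GRCm38 and featureCounts for reads over exons; versions, annotation release, strand setting and the lengths behind TPM are not given in the sources used here. The authors deposited raw counts, normalized counts (a signal, each count divided by 1 size factor per library; not used in the tests) and TPM. The TPM were made by the authors from counts and gene lengths before deposit and have the same sum in each library. Counts of 6 libraries were fitted together in edgeR 4.0.16 (R 4.3.3) with TMM, filterByExpr and the quasi-likelihood F test, Benjamini-Hochberg at 0.05 over 14290 genes; SE was |log2 fold change| over the root of F. Checks on simulated data preceded the fit. Single-library log2 CPM used a prior count of 2. DESeq2 1.42.0 and limma 3.58.1 (log2(TPM + 1)) were alternatives. Genes named were the 6 members, genes of the pathway and marker lists and, for each CYP1 gene, the 5 most correlated genes. The members and lists were chosen with earlier results of these data known. Promoter windows came from RefSeq and gene positions from GENCODE vM21. A gene of the receptor complex list is not reported here.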

Additional observations from a re-analysis of the deposited data

How the results depend on the processing

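Genes called at an adjusted p under 0.05 numbered 0 for MASM7, 0 for MFI8 and 0 for MFI8 against MASM7 with edgeR, and stayed at 0 with DESeq2's size factors, library size alone, at least 10 counts in every library, and limma on TPM. With no filter beyond 1 count in any library they were 127, 256 and 168 of 26760. With DESeq2's Wald test they were 2, 48 and 29. With only the groups compared they were 1 for MASM7 and 2 for MFI8 against MASM7. Leaving out each library in turn gave 0 to 2, 0 to 26 and 0 to 24, the highest of the last 2 without MFI8 replicate 1. With the replicate number as a replicate block they were 554, 720 and 439. Arnt was called in none of these block fits. No label says that a number marks a shared culture or day. The differences between replicates 2 and 1 correlated across genes with r = 0.188, 0.152 and 0.165 between the pairs of groups; for Ahr this difference was −0.379 in vehicle, −0.428 with MASM7 and −0.303 with MFI8. Of 200 member fold changes under the alternatives, 188 kept their sign, and the others were of Ahr or Arnt with MFI8 or of Tiparp with MASM7, where the value was near 0. Cyp1b1 gave no value with at least 10 counts in every library or on TPM, nor for MFI8 with only the groups compared, and Cyp1a1 none with at least 10 counts. The cause of these changes was not tested. Cyp1a1, Cyp1b1 and Ahrr had 90 counts or fewer per library, and the Cyp1a1 libraries within vehicle and within MFI8 also differed beyond counting error.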
